A study of Arabidopsis thaliana with 42 samples.

Results

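The phenylpropanoid entry enzymes described here are the products of 8 genes of Arabidopsis thaliana: PAL1, PAL2, PAL3 and PAL4 for phenylalanine ammonia-lyase, C4H for cinnamate 4-hydroxylase, and 4CL1, 4CL2 and 4CL3 for 4-coumarate:CoA ligase. The genes were chosen by name, as the 8 of 33602 counted loci with these symbols. Messenger RNA was counted in 42 libraries from seedlings of the link1link2 double mutant and of its wild-type accession Col-0, kept on MS medium at 22 °C. The sample labels give an age of 9 days, while the series' description states a longer growth period in continuous light. In continuous light there were 3 link1link2 and 3 wild-type libraries. In long days, with 16 h of light before 8 h of darkness, 3 libraries of each genotype were taken at each of 6 zeitgeber times (ZT, hours after lights on), which were 2, 6, 10, 14, 18 and 22 h. The mutated genes are taken to be LNK1 and LNK2. The labels give neither the alleles nor the number of independent mutant lines, and whether the 3 libraries of a group came from separate cultures is not given, so p-values measure the spread between libraries, which may be technical.

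Phenylalanine ammonia-lyase removes ammonia from phenylalanine and makes cinnamate, C4H hydroxylates cinnamate to 4-coumarate, and 4CL joins 4-coumarate to coenzyme A. The product, 4-coumaroyl-CoA, is the branch point from which plants make lignin monomers, sinapate esters, flavonols and anthocyanins. In Arabidopsis PAL1 and PAL2 are the main lyase genes, PAL4 acts with them in lignifying tissue and PAL3 has a minor part. 4CL1 and 4CL2 are associated with lignin and 4CL3 with flavonoids. LNK1 and LNK2 are light-induced, clock-regulated coactivators that bind MYB-like clock factors of the REVEILLE family.

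PAL1 (AT2G37040) lies on chromosome 2 at 15557367 to 15560755 on the minus strand of TAIR10.1 and has 2 exons. PAL2 (AT3G53260) lies on chromosome 3 at 19744018 to 19747114, minus strand, with 2 exons. PAL3 (AT5G04230) lies on chromosome 5 at 1160569 to 1163957, plus strand, and PAL4 (AT3G10340) on chromosome 3 at 3203988 to 3208135, plus strand, each with 3 exons. The single C4H gene (AT2G30490) lies on chromosome 2 at 12993625 to 12996012, minus strand, with 3 exons. 4CL1 (AT1G51680) lies on chromosome 1 at 19158746 to 19161737, minus strand, with 2 exons. 4CL2 (AT3G21240) lies on chromosome 3 at 7454269 to 7457404, minus strand, with 2 exons, and 4CL3 (AT1G65060) on chromosome 1 at 24167202 to 24171635, minus strand, with 6 exons. Of the 8 genes 4CL1 alone overlaps another annotated locus, by 24 bases on the opposite strand. The coding sequences of PAL1 and PAL2 are 84.0% identical, those of PAL3 and PAL4 78.9% and those of 4CL1 and 4CL2 81.6%, while the other pairs within a family are 67.3 to 73.5% identical. Of 2882 windows of 50 bases in the PAL1 transcript 31 occur unchanged in PAL2, and none of the other pairs shares such a window. How the counting treated reads that match both genes is not given in the sources used here.

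The 250 bases before each annotated gene start were searched on both strands for sites of clock and pathway regulators. The evening element AAATATCT and the CCA1-binding site AAAAATCT, which MYB-like clock factors bind, were in none of the 8 windows, against 4.788% and 6.687% of 27443 promoters of protein-coding genes. The G-box CACGTG was in that of PAL4 alone, against 6.486% of promoters. The AC elements, which MYB factors bind in genes of this pathway, were in 2 windows, against 6.118% of promoters with any of the 3 forms searched. The form AC-I (ACCTACC, 1.162% of promoters) occurred at 120 and 68 bases before the start of 4CL3, the form AC-II (ACCAACC, 2.689%) at 140 and 31 bases before the start of 4CL2, and the form AC-III (ACCTAAC, 2.463%) in none. The matches did not overlap each other. The 3 windows that held a match are shown with it in capitals, 5′ to 3′ on the gene's strand, from the RefSeq copy of TAIR10.1: PAL4 at chr3:3203738-3203987 (plus strand), 4CL2 at chr3:7457405-7457654 (minus strand) and 4CL3 at chr1:24171636-24171885 (minus strand). They are shown as the members whose windows hold one of the motifs searched.
PAL4: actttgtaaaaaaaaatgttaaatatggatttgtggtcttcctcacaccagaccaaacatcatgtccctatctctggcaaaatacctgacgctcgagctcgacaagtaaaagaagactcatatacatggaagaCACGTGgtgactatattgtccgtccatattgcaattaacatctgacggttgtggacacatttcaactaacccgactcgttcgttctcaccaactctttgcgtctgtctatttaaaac
4CL2: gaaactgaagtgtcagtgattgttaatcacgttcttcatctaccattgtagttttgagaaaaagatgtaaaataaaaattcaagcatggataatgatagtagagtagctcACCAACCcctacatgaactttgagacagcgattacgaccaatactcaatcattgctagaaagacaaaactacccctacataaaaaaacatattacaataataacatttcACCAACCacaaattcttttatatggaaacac
4CL3: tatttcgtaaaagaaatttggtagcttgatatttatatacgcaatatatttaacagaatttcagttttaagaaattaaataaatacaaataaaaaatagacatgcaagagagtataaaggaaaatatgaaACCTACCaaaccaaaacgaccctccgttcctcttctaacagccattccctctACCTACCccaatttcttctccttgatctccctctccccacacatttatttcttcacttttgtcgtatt
A match is a run of letters and not a shown binding site.

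Levels are given as CPM (reads of a gene relative to the size of its library) scaled with TMM factors, and CPM per kilobase of exon where genes are compared with each other. The 6 continuous-light libraries held between 11448934 and 14911921 counts and the 36 long-day libraries between 7259559 and 13576565, and the least counted member, 4CL3, had between 26 and 657 counts per library. LNK2 stood at 16.1 to 17.4 CPM in link1link2 libraries against 140.0 to 141 CPM in wild type in continuous light. In long days LNK2 kept between 10.6 and 29.7 CPM in the link1link2 libraries at all 6 times, whereas wild type reached 701 to 761 CPM at ZT2. At ZT14 and ZT18, where wild type held 6.05 to 8.599 CPM, the libraries taken as link1link2 had the higher LNK2 level, 21.8 to 29.7 CPM. LNK1 was lower in link1link2 in continuous light and at ZT2, ZT6 and ZT10 and higher at ZT14, ZT18 and ZT22. Which part of each transcript the mutations remove is not given in the sources used here. The mutant columns carry a name that no label explains and were placed by elimination, and directions at ZT14 and ZT18 rest on that placing. Chloroplast-encoded counts made up 0.207 to 3.31% of a library, and 4 libraries exceeded 2% (link1link2 ZT2 C, ZT22 A and ZT22 C, and wild type ZT10 B). The last stood apart from its replicates, with a chi-square per degree of freedom of 20.1 and 23.9 against them and 2.54 between them. Without it 3 of the 4 ZT10 calls given below were kept, and that of 4CL2 was lost.

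In continuous light most of the entry genes were lower in link1link2. Of the 8 genes, 6 fell (PAL1, PAL2, C4H, 4CL1, 4CL2 and 4CL3), none rose and 2 were not called, PAL3 (0.13) and PAL4 (0.25), both with a positive fold change. Among all 20158 genes tested 2.98% were lower and 2.18% higher in link1link2 at an adjusted p under 0.05 (edgeR quasi-likelihood test). The median log2 fold change was -0.28 over the 8 genes and 0.00 over all genes. Without wild-type library B, 3 of the 8 were called (PAL1, PAL2 and 4CL3).

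**Figure D1:**
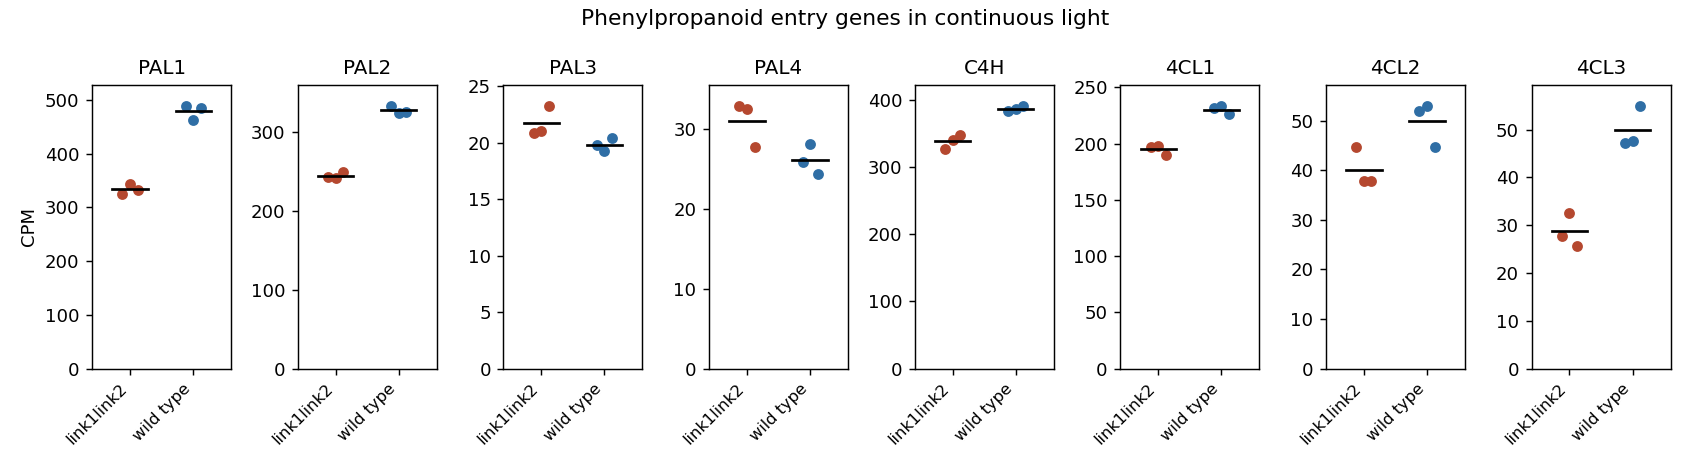
Levels of the 8 genes in continuous light, in CPM on an axis from 0, with a point for each library, a bar at the mean of 3 libraries, link1link2 on the left and wild type on the right. The PAL1, PAL2, C4H, 4CL1 and 4CL3 points of link1link2 all lie below those of wild type, the 4CL2 points overlap, and the PAL3 points of link1link2 lie above.

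In long days the direction of the difference depended on the hour. At ZT2 1 of the 8 genes was higher in link1link2 and none lower, where 8.53% of the 20518 genes tested were higher and 7.58% lower. At ZT6 4 were higher and 1 lower, against 10.1% higher and 9.98% lower of all genes. At ZT10 4 were higher and none lower, against 11.4% and 10.7%. At ZT14 none was higher and 2 lower, against 7.72% and 6.98%. At ZT18 none was higher and 4 lower, against 10.6% and 9.59%. At ZT22, late in the night, none was higher and 7 of 8 were lower, against 16.6% higher and 14.1% lower of all genes. The median log2 fold change of the 8 genes was 0.23 at both ZT6 and ZT10 and -0.62 at ZT22, where that of all genes lay between 0.00 and 0.01. Averaged over the 6 times, 1 gene was higher (PAL3) and 3 were lower (PAL1, PAL2 and 4CL3), against 18.2% and 15.7% of all genes. The difference between genotypes changed with the time of day for 7 of the 8 genes, all but PAL3, against 41.9% of all genes. With library totals in place of TMM factors the split of all genes moved towards higher calls at ZT2 (2971 higher and 1144 lower, against 1750 and 1556) and ZT6 (2742 and 1581, against 2072 and 2047). It moved towards lower calls at ZT14 (1016 and 2681, against 1584 and 1432), ZT18 (1518 and 2590, against 2179 and 1968) and in continuous light (340 and 808, against 439 and 600). At ZT22 it gave 2658 higher and 3338 lower genes, against 3399 and 2886. No called member changed direction under that scaling.

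**Figure D2:**
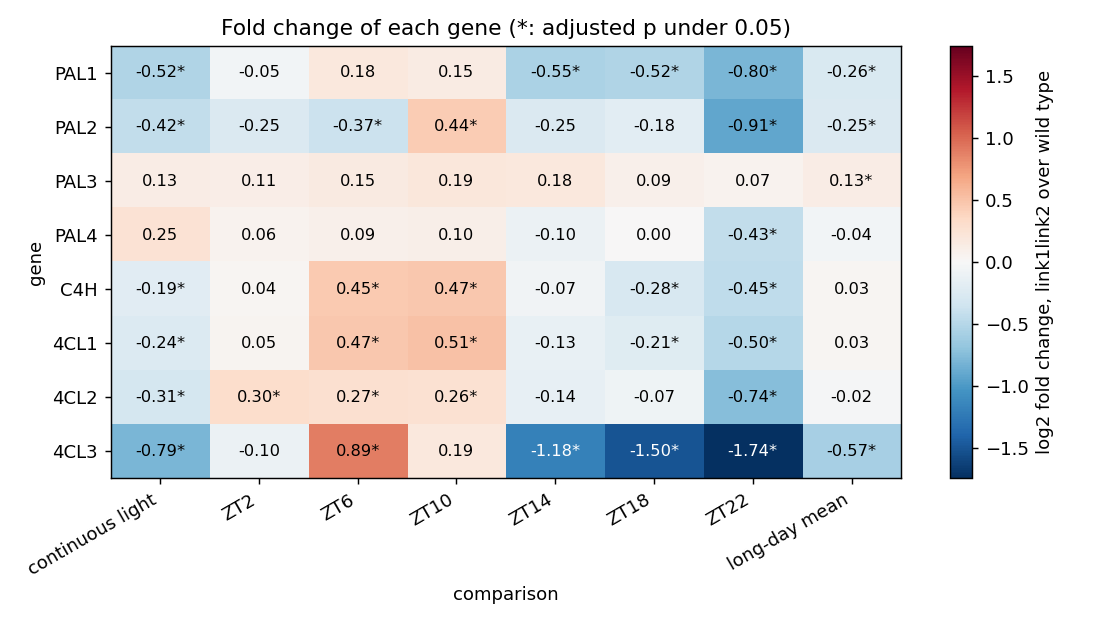
Log2 fold change of link1link2 over wild type for each of the 8 genes (rows) in continuous light, at the 6 long-day times and in the mean of those times (columns), with a star at an adjusted p under 0.05. The cells turn from positive at ZT6 and ZT10 to negative at ZT22 for PAL1, PAL4, C4H, 4CL1, 4CL2 and 4CL3. The positive cells of PAL1 and PAL4 at ZT6 and ZT10 and of 4CL3 at ZT10 carry no star. The PAL3 row stays between 0.07 and 0.19 at the 6 times.

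PAL1 had 325, 344 and 332 CPM in link1link2 and 489, 462 and 484 CPM in wild type in continuous light, with no overlap between the groups. The log2 fold change was -0.52 ± 0.06 (SE; adjusted p = 3.08e-06). In long days PAL1 was called at ZT14, ZT18 and ZT22 and not at the 3 earlier times. At ZT2 the 3 link1link2 libraries had 473, 456 and 465 CPM and those of wild type 502, 430.4 and 513 CPM, and the groups overlapped. At ZT14 PAL1 stood at 196, 181 and 192 CPM in link1link2 and at 224, 349 and 258 CPM in wild type. The wild-type library B was the high one, and the fold change of -0.55 ± 0.10 (adjusted p = 0.000174) became -0.34 (adjusted p = 0.00184) without it. At ZT18 the levels were 125, 114 and 129 CPM in link1link2 against 198, 157 and 172 CPM in wild type (-0.52 ± 0.10, adjusted p = 0.000268). At ZT22 they were 101, 99.7 and 88.7 CPM against 172, 167 and 164 CPM (-0.80 ± 0.10, adjusted p = 2.84e-07). The groups did not overlap at ZT14, which lies in the light, or at ZT18 and ZT22, which lie in the dark. At ZT6 and ZT10 PAL1 was not called (0.18 ± 0.10 and 0.15 ± 0.10), although at ZT6 every link1link2 library lay above every wild-type library. With each time fitted alone PAL1 was called at ZT6 (0.18, adjusted p = 0.0333).

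PAL2, the closest relative of PAL1, had 242, 242 and 249 CPM in link1link2 and 333, 324 and 325 CPM in wild type in continuous light (-0.42 ± 0.05, adjusted p = 2.41e-05), again without overlap. In long days PAL2 changed direction within the light period. At ZT6 it stood at 192, 204 and 206 CPM in link1link2 against 256, 259 and 261 CPM in wild type (-0.37 ± 0.09, adjusted p = 0.00259), the only member that was lower at that time. At ZT10 the order was turned round, with 187, 210.3 and 197 CPM in link1link2 against 139, 149 and 151 CPM in wild type (0.44 ± 0.09, adjusted p = 0.000334). At ZT22 the levels were 106, 112 and 106 CPM in link1link2 and 207, 197 and 205 CPM in wild type, and the fold change of -0.91 ± 0.09 (adjusted p = 8.85e-10) was the largest among the PAL genes. The groups were apart at all 3 times. Wild-type PAL2 went up between ZT18 (162 ± 16.2 CPM) and ZT22 (203 ± 5.70 CPM), whereas link1link2 had 143 ± 2.99 CPM at ZT18 and 108 ± 3.32 CPM at ZT22 (SD, n = 3 each). The ZT18 difference was not called (-0.18 ± 0.09, adjusted p = 0.181), and was called with each time fitted alone (adjusted p = 0.0425). At ZT2 the fold change of -0.25 ± 0.09 missed the threshold (adjusted p = 0.0518) and passed it when any of 18 of the 36 libraries was left out, with adjusted p down to 0.00667 without wild-type ZT14 library B. At ZT14 PAL2 was not called (-0.25 ± 0.09, adjusted p = 0.0662), and the value depended on single wild-type libraries and on scaling. It was -0.40 and called without wild-type ZT14 library A (adjusted p = 0.000521), -0.059 without library B (adjusted p = 0.696), and -0.33 and called with library totals alone (adjusted p = 0.00581).

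PAL3, the weakly expressed member of the family, had 20.9, 21.1 and 23.3 CPM in link1link2 and 19.8, 19.3 and 20.4 CPM in wild type in continuous light, and was not called (0.13 ± 0.08, adjusted p = 0.44). It was not called at any single long-day time either, with fold changes between 0.07 (ZT22) and 0.19 (ZT10). The mean over the 6 times was 0.13 ± 0.04 (adjusted p = 0.0168), and with the 4 libraries of over 2% chloroplast counts left out it was 0.10 (adjusted p = 0.119). The change of the difference with time was not called (adjusted p = 0.968). PAL3 was highest at ZT6 and lowest at ZT22 in both genotypes. Its ZT6 level averaged 27.4 ± 2.43 CPM in link1link2 and 24.7 ± 2.096 CPM in wild type, and its ZT22 level 16.4 ± 1.59 and 15.5 ± 1.48 CPM (SD, n = 3 each).

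PAL4 had 32.8, 32.4 and 27.6 CPM in link1link2 and 25.9, 28.1 and 24.3 CPM in wild type in continuous light, which overlap. It was not called with all 6 libraries (0.25 ± 0.08, adjusted p = 0.0843) and was called without link1link2 library C (0.32, adjusted p = 0.0191). With the column letters as a replicate block it was also called (0.25, adjusted p = 0.0170). In long days PAL4 differed at ZT22 alone, with 31.2, 32.8 and 24.5 CPM in link1link2 and 40.2, 35.4 and 42.9 CPM in wild type (-0.43 ± 0.08, adjusted p = 7.93e-05). The link1link2 libraries A and C at ZT22 are among those of over 2% chloroplast counts. With those left out, which leaves 1 link1link2 library at ZT22 that is assumed to vary like the others, the fold change was -0.27 and not called (adjusted p = 0.0765). The level of PAL4 in link1link2 over the 6 times was 83.7, 46.9, 39.4, 33.0, 34.6 and 29.5 CPM on average, against 80.5, 43.9993, 36.8, 35.4, 34.6 and 39.5 CPM in wild type.

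C4H, the single cinnamate 4-hydroxylase gene, had 327, 341 and 348 CPM in link1link2 and 383, 386 and 391 CPM in wild type in continuous light, without overlap. The fold change of -0.19 ± 0.05 was near the threshold (adjusted p = 0.0458), and it was not called when any of the 6 libraries was left out (adjusted p from 0.0570 to 0.162). In long days C4H was higher in link1link2 at ZT6 and ZT10 and lower at ZT18 and ZT22, and was not called at ZT2 (0.04 ± 0.07) or ZT14. At ZT6 it stood at 337, 331 and 333 CPM in link1link2 against 235, 253 and 241 CPM in wild type (0.45 ± 0.08, adjusted p = 1.12e-05). At ZT10 it stood at 265, 277 and 314 CPM against 201, 207 and 209.5 CPM (0.47 ± 0.08, adjusted p = 4.06e-06). In neither case did the groups overlap. At ZT2 and ZT14 the groups overlapped, and the ZT14 fold change was -0.07 ± 0.08. At ZT18 the levels were 202, 184 and 198 CPM in link1link2 and 250.001, 226 and 233 CPM in wild type (-0.28 ± 0.08, adjusted p = 0.00572). At ZT22 they were 183, 177 and 161 CPM in link1link2 and 233, 250.5 and 226 CPM in wild type (-0.45 ± 0.08, adjusted p = 1.18e-05). The differences at ZT10 and ZT22 were of similar size and opposite sign, and the mean over the 6 times was 0.03 ± 0.03 (adjusted p = 0.508).

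4CL1, the most abundant ligase gene, had 197, 198 and 189.6 CPM in link1link2 and 231, 234 and 226 CPM in wild type in continuous light (-0.24 ± 0.05, adjusted p = 0.00811). The groups did not overlap, and without wild-type library B the fold change of -0.23 was not called (adjusted p = 0.0632). At ZT6 4CL1 stood at 230.4, 238 and 245 CPM in link1link2 against 178, 173 and 164 CPM in wild type (0.47 ± 0.07, adjusted p = 8.99e-07). At ZT10 it stood at 187, 197 and 216 CPM against 144, 136 and 143 CPM (0.51 ± 0.07, adjusted p = 1.36e-07). At ZT22 it was down to 77.5, 76.6 and 75.0 CPM in link1link2, against 109, 104 and 110.1 CPM in wild type (-0.50 ± 0.07, adjusted p = 4.55e-07). The groups were apart at these 3 times, and their order was reversed between ZT10 and ZT22. At ZT18 4CL1 was also lower in link1link2 (-0.21 ± 0.07, adjusted p = 0.0262). That call was lost without link1link2 library B (-0.13, adjusted p = 0.248), wild-type library A (-0.20, adjusted p = 0.0757) or wild-type library C (-0.21, adjusted p = 0.0668) of ZT18.

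4CL2 had 44.7, 37.9 and 37.9 CPM in link1link2 and 52.1, 53.01 and 44.6 CPM in wild type in continuous light. The groups overlapped, and the call (-0.31 ± 0.08, adjusted p = 0.0231) was lost without link1link2 library B or C or wild-type library A or B (adjusted p from 0.0758 to 0.147). 4CL2 was the member with a higher level in link1link2 at ZT2, where it stood at 44.02, 47.6 and 55.1 CPM against 40.05, 36.997 and 42.4 CPM in wild type (0.30 ± 0.09, adjusted p = 0.0138). The ZT2 call was lost without link1link2 library C (0.19, adjusted p = 0.226), which is also the ZT2 library of over 2% chloroplast counts. It was also lost without wild-type library A (0.29, adjusted p = 0.0579) or B (0.22, adjusted p = 0.152), and with each time fitted alone (0.29, adjusted p = 0.0712). At ZT6 the fold change was 0.27 ± 0.10 (adjusted p = 0.0359), which was lost without link1link2 library A or C or wild-type library B or C (adjusted p from 0.0595 to 0.228). At ZT10 it was 0.26 ± 0.10 (adjusted p = 0.0413), which was lost without link1link2 library A or B or wild-type library B or C (adjusted p from 0.0525 to 0.131). The ZT10 call was also lost with DESeq2 (adjusted p = 0.0887), with library totals alone (adjusted p = 0.0584) and without the libraries of over 2% chloroplast counts (0.21, adjusted p = 0.146). DESeq2 ended the calls at ZT6 (adjusted p = 0.0562) and in continuous light (adjusted p = 0.0617) as well. At ZT2, ZT6 and ZT10 every link1link2 library lay above every wild-type library, and at ZT14, the last time in the light, the groups overlapped. At ZT22 4CL2 stood at 15.2, 16.4 and 19.3 CPM in link1link2 and at 29.4, 27.8 and 27.8 CPM in wild type (-0.74 ± 0.10, adjusted p = 2.44e-07), and this call did not depend on any single library.

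4CL3, the ligase gene associated with flavonoids, had the largest differences of the 8 in continuous light and at ZT6, ZT14, ZT18 and ZT22. In continuous light it stood at 27.8, 32.6 and 25.7 CPM in link1link2 and at 47.2, 47.5 and 54.95 CPM in wild type (-0.79 ± 0.08, adjusted p = 6.82e-06). At ZT6 it was higher in link1link2, at 15.9, 13.8 and 10.5 CPM against 8.12, 6.15 and 7.32 CPM in wild type (0.89 ± 0.19, adjusted p = 0.000614). ZT6 was the lowest point of the wild-type day for this gene. Wild type then had a second high at ZT14, at 23.9, 35.4 and 23.3 CPM, where link1link2 had 12.9, 12.1 and 11.6 CPM (-1.18 ± 0.16, adjusted p = 7.07e-07). As for PAL1, wild-type library B was the high one at ZT14, and without it the fold change was -0.95 (adjusted p = 1.24e-05). At ZT18 the levels were 4.01, 3.12 and 3.87 CPM in link1link2 and 9.40, 10.6 and 10.99 CPM in wild type (-1.50 ± 0.22, adjusted p = 2.3e-06). At ZT22 they were 3.01, 2.97 and 3.08 CPM in link1link2 and 11.9, 9.26 and 9.05 CPM in wild type (-1.74 ± 0.22, adjusted p = 1.17e-07). No libraries of the 2 genotypes overlapped at these times, and at ZT2 and ZT10 they did. There 4CL3 was not called (-0.10 ± 0.14 at ZT2 and 0.19 ± 0.18 at ZT10).

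**Figure D3:**
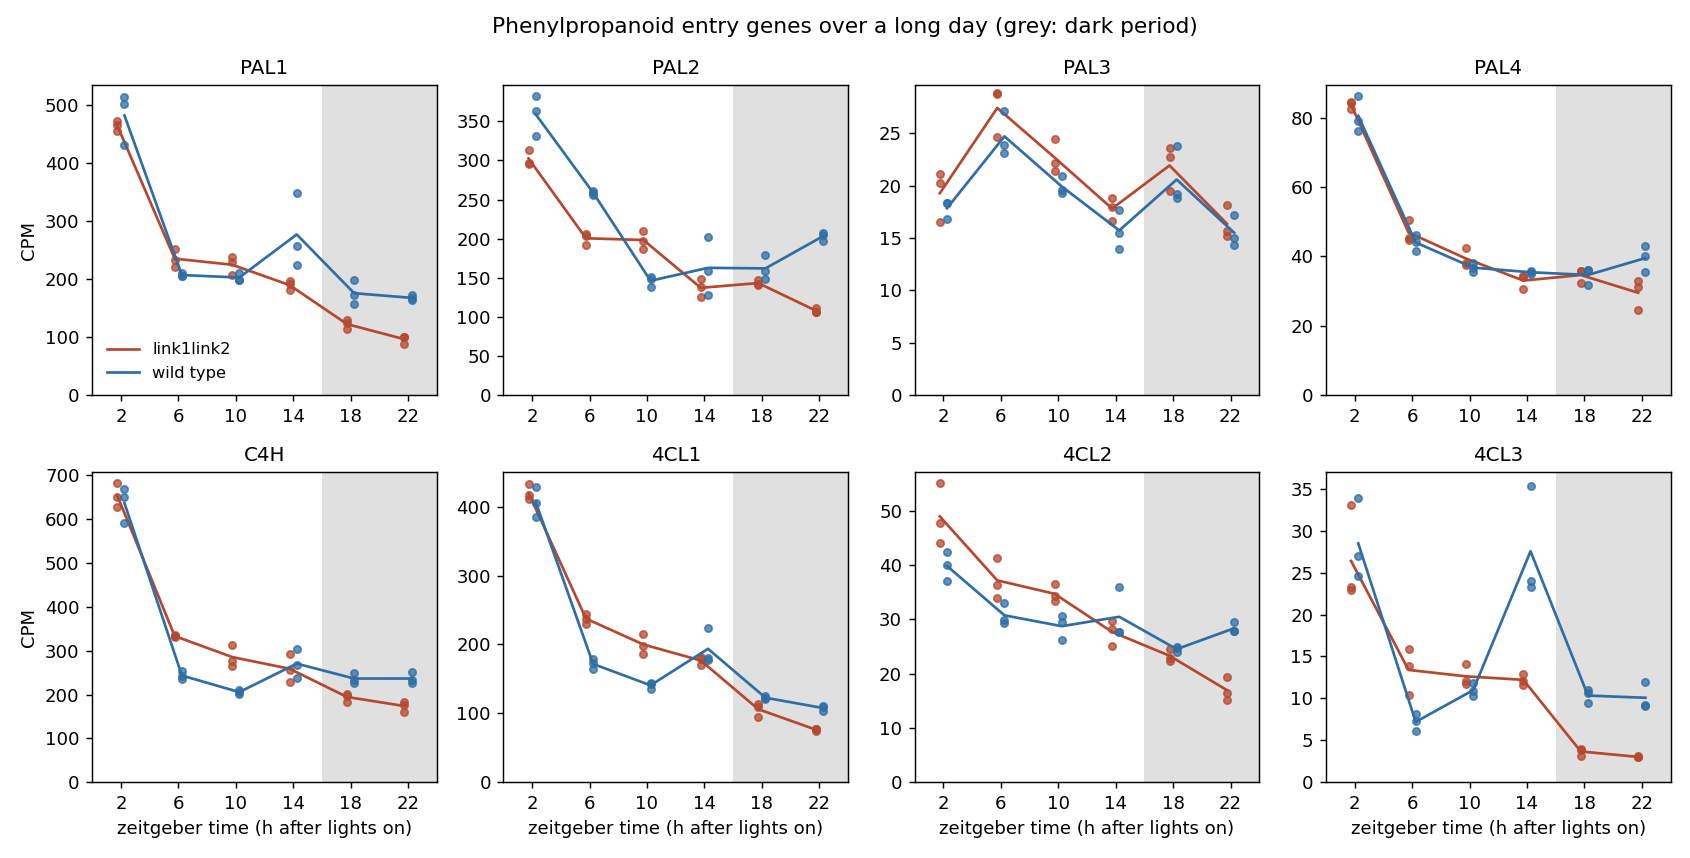
Levels of the 8 genes over the long day, in CPM on axes from 0 against zeitgeber time in hours, with a point for each library and lines through the means of 3 libraries; the dark period is grey. The lines of both genotypes start near each other at ZT2 except for PAL2 and 4CL2, and those of link1link2 end below wild type at ZT22 except for PAL3.

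Time of day was called for 8 of the 8 genes in link1link2 and for 8 of 8 in wild type, against 83.8% and 79.9% of all genes. In both genotypes 7 of the 8 were highest at ZT2, and PAL3 at ZT6. In link1link2 all 8 were lowest at ZT22, whereas the lowest time in wild type was ZT6 for 4CL3, ZT10 for PAL2 and C4H, ZT18 for PAL4 and 4CL2, and ZT22 for PAL1, PAL3 and 4CL1. The ratio of the highest to the lowest time mean was larger in link1link2 for each of the 8. It was 8.74 in link1link2 against 3.96 in wild type for 4CL3, 5.50 against 3.77 for 4CL1, 4.82 against 2.87 for PAL1 and 3.76 against 3.10 for C4H. For 4CL2 it was 2.89 in link1link2 against 1.63 in wild type, for PAL4 2.84 against 2.32, for PAL2 2.80 against 2.45 and for PAL3 1.68 against 1.59. These ratios have no test of their own, and no share of all genes is given here for the ratios or the lowest times. A cosine of 24 h left much of the pattern undescribed, with 0.0166 (4CL3 in wild type) to 0.759 (PAL2 in wild type) of the variance of log2 CPM explained. The test for a difference of that cosine between genotypes called none of the 8 by edgeR, against 15.3% of all genes, and 3 had an unadjusted p under 0.05. With library totals alone it called 1, 4CL2.

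The 7 genes other than PAL3 moved together over the day. Over the 12 means of genotype and time (log2 CPM with 0.5 added), Pearson's r for the 21 pairs among them lay between 0.64 and 0.96, with 4CL1 and PAL1 the most alike. For the 7 pairs with PAL3 it lay between -0.15 and 0.27. The pairs share libraries, so these values are descriptions. In wild type alone the lowest r among the 21 pairs was 0.25, for PAL2 and 4CL3, and in link1link2 alone it was 0.80, for PAL4 and 4CL3.

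The genes outside the family whose daily patterns were most like each member were looked up among 17263 genes with at least 5 CPM in some group, by the same r over 12 means. C4H was most like C3H1, the next hydroxylase of the monolignol branch, listed as CYP98A3 (r = 0.99), the shikimate pathway gene AT2G45300 (EPSPS) (r = 0.99) and HCT (r = 0.98), a shikimate hydroxycinnamoyl transferase. HCT was also first for PAL4 (r = 0.98). 4CL1 was most like AT4G30490, the lignin methyltransferase gene CCoAOMT1 and the kinase gene SK13 (r = 0.99 for each). PAL1 was most like the flavonoid gene F3H and the locus AT3G51238, which overlaps F3H by 1588 bases so that their reads cannot be told apart (r = 0.98 for both), and like AT5G17010 (r = 0.98). 4CL3 was most like the chalcone isomerase gene CHI, listed as TT5 (r = 0.97), then AT4G08940 and CGLD27 (r = 0.96 for both). PAL2 was most like SSL2, AT5G11880 and AT5G43150 (r = 0.93 for each), and 4CL2 was most like AT2G45290, XPB2 and PHR1 (r from 0.96 to 0.97). PAL3 was most like IMPA-4, POM1 and AT1G30760 (r from 0.91 to 0.94). C3H1 overlaps other annotated loci by 529 and 70 bases, so part of its counts may be theirs.

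Per kilobase of exon, C4H had the highest level of the 8 at ZT2, with 314 ± 12.9 CPM per kb in link1link2 and 306 ± 19.4 in wild type (SD, n = 3 each). 4CL1 (164 ± 4.45 in link1link2 and 159 ± 8.62 in wild type) and PAL1 (158 ± 2.86 and 164 ± 15.3) followed and did not differ from each other beyond their spread on this scale. Per kilobase of coding sequence 4CL1 lay above PAL1 in link1link2 at ZT2, at 243 to 257 against 209 to 217 CPM per kb, and in wild type the 2 genes overlapped, at 228 to 255 and 198 to 236. PAL2 came next (104.7 ± 3.45 in link1link2 and 124 ± 8.90 in wild type), then PAL4, 4CL2, 4CL3 and, lowest, PAL3 with 7.39 ± 0.933 and 6.84 ± 0.341. At ZT22 4CL3 was the lowest of the 8 in both genotypes, at 1.36 ± 0.0245 CPM per kb in link1link2 and 4.55 ± 0.721 in wild type. Summed over the 4 PAL genes, the level at ZT22 was 87.5 ± 4.65 CPM per kb in link1link2 and 148.0 ± 4.01 in wild type, and in continuous light it was 218 ± 3.17 and 294 ± 5.70. Summed over the 3 4CL genes it was 39.3 ± 0.526 CPM per kb in link1link2 and 60.2 ± 2.00 in wild type at ZT22, and 108 ± 3.91 and 136 ± 1.81 in continuous light. At ZT6 the 4CL sum was higher in link1link2, at 117 ± 2.97 against 85.0 ± 3.75 in wild type. At ZT10 both sums were higher in link1link2. There the 4CL sum was 100.4 ± 5.33 in link1link2 and 73.7 ± 2.97 in wild type, and the PAL sum 169 ± 8.28 and 141 ± 4.23. At ZT14 and ZT18 both sums were lower in link1link2, without overlap between the groups. At ZT2 the groups overlapped for both sums, as they did for the PAL sum at ZT6. These sums have no test, and they follow PAL1, PAL2 and 4CL1, which hold most of each family.

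The make-up of each family differed with the hour and between genotypes. At ZT6 PAL2 held 39.2 ± 1.35% of the summed PAL level per kilobase in link1link2 and 48.2 ± 0.27% in wild type, and PAL1 held 45.2 ± 1.498% in link1link2 and 37.997 ± 0.51% in wild type (SD, n = 3 each). PAL1 was thus ahead of PAL2 in link1link2 and behind it in wild type at that hour. In wild type PAL2 was also ahead at ZT22, with 47.5 ± 0.38% against 38.7 ± 0.97% for PAL1. In link1link2 PAL2 was ahead at ZT18 (44.1 ± 0.50% against 37.1 ± 1.48%), where wild type had PAL2 at 41.1 ± 0.24% and PAL1 at 43.8 ± 0.91%, and at ZT22 (42.9 ± 1.96% against 37.6 ± 0.80%). 4CL1 held 70.3 to 82.3% of the 4CL level in link1link2 and 66.01 to 83.3% in wild type over the 7 conditions. The share of 4CL3 was 3.47 ± 0.03% in link1link2 and 7.54 ± 0.99% in wild type at ZT22, 6.28 ± 0.26% and 12.0 ± 1.10% at ZT14, and 12.0 ± 1.23% and 16.5 ± 1.67% in continuous light. At ZT6 it was 5.21 ± 1.18% in link1link2 and 3.82 ± 0.46% in wild type. Differences between shares were not tested.

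**Figure D4:**
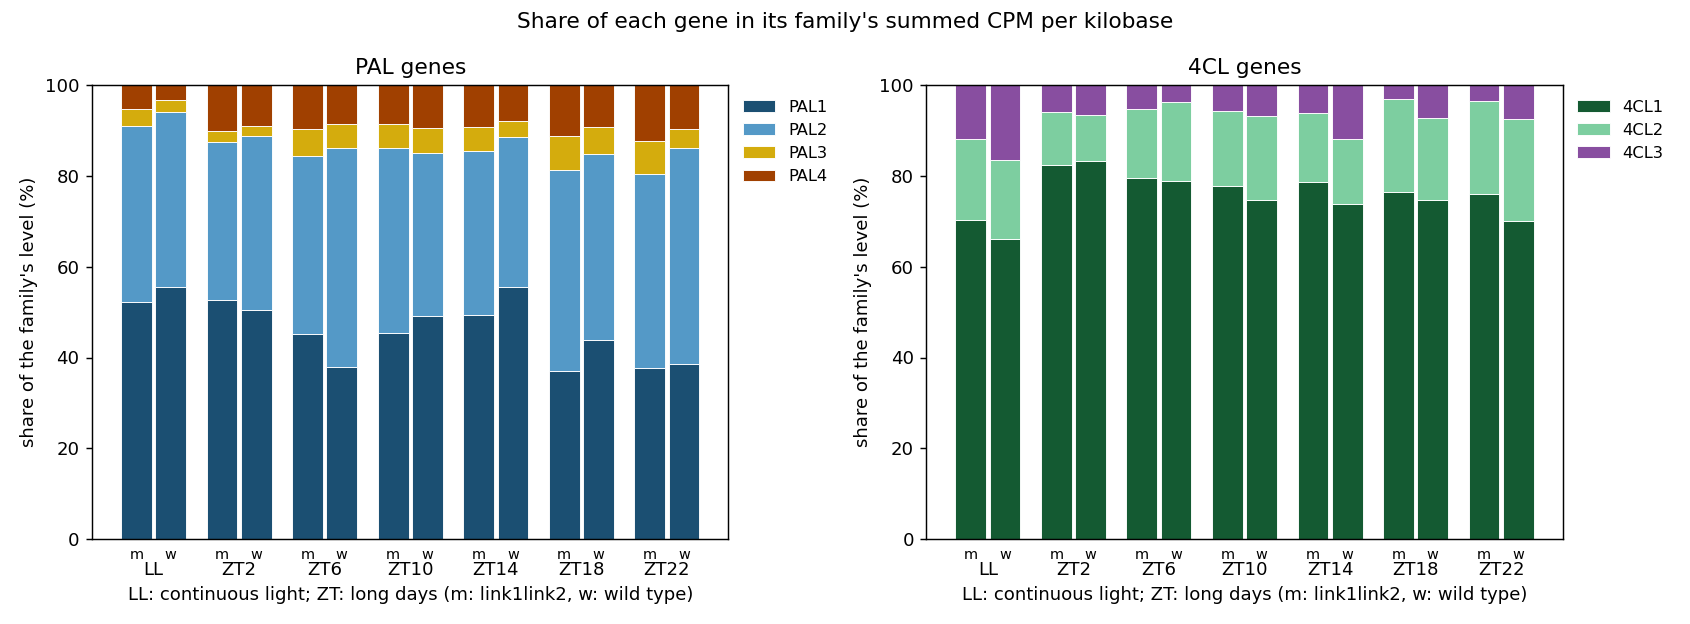
Share of each gene in the summed CPM per kilobase of its family in percent, as the mean of 3 libraries, for continuous light (LL) and the 6 long-day times, with link1link2 (m) left of wild type (w) in each pair. PAL1 and PAL2 fill most of each PAL bar and change order between the genotypes at ZT6 and, in the opposite sense, at ZT18, and the 4CL3 part is smaller in link1link2 at ZT14, ZT18 and ZT22.

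The genes around the entry steps were counted by list, and each count is to be read against the share of all genes given above for the same comparison. Of 7 genes of the flavonoid branch 6 fell in continuous light, with F3PH, the flavonoid 3′-hydroxylase gene, at -1.16 ± 0.11 (adjusted p = 3.5e-06), and the list median was -0.84. At ZT6 6 of the 7 were higher, at ZT10 3 were higher, and at ZT22 7 of 7 were lower, among them the chalcone synthase gene CHS (-2.56 ± 0.16, adjusted p = 2.14e-12). At ZT14 6 were lower and 1 higher, and at ZT18 6 were lower, led by the flavonol synthase gene FLS1 (-2.21 ± 0.16, adjusted p = 4.42e-11). The late gene DFR had the smallest counts, with 113, 93 and 133 counts at ZT10 in link1link2 libraries against 2, 0 and 3 in wild type, and 0, 0 and 4 at ZT22 against 27, 28 and 25.

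Of 15 genes of the monolignol and sinapate branch 4 fell in continuous light and none rose. They included the sinapate glucosyltransferase genes UGT84A1 (-0.66 ± 0.15, adjusted p = 0.00966) and UGT84A3 (-0.53 ± 0.09, adjusted p = 0.000522). At ZT6 6 were higher and 2 lower, at ZT10 10 were higher and 1 lower, and at ZT22 2 were higher and 10 lower. The reductase gene CCR2 was higher by 0.67 ± 0.20 at ZT10 (adjusted p = 0.0107), and UGT84A2 was lower at ZT22 (-1.22 ± 0.11, adjusted p = 3.88e-12). At ZT14 the list was split, with 6 higher and 4 lower. At ZT18 1 was higher and 6 were lower.

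Of 20 genes that supply phenylalanine through the shikimate pathway 2 fell in continuous light, ADT5 (-0.29 ± 0.07, adjusted p = 0.0121), an arogenate dehydratase gene, and DHS1 (-0.22 ± 0.06, adjusted p = 0.0335), which encodes the first step of the pathway. At ZT6 8 were higher and 2 lower, with the chorismate mutase genes CM1 (0.75 ± 0.08, adjusted p = 2.3e-09) and CM3 (-0.74 ± 0.10, adjusted p = 3.61e-07) at the extremes. At ZT10 8 were again higher and 2 lower, at ZT14 4 were lower, at ZT18 7 were lower, and at ZT22 1 was higher and 10 were lower. CM3 and CCR2 overlap other loci by 162 and 132 bases. At ZT2 the calls were 1 of 20 supply genes, 3 of 15 monolignol and sinapate genes and 1 of 7 flavonoid genes, where 8.53% of all genes were higher and 7.58% lower.

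Among the regulators are the Kelch F-box proteins KFB01, KFB20, KFB39 and KFB50, which target phenylalanine ammonia-lyase for degradation, and MYB4, a repressor of C4H. KFB20 was lower in link1link2 at ZT6 (-1.45 ± 0.17, adjusted p = 4.92e-07) and ZT10 (-0.76 ± 0.18, adjusted p = 0.00257). It was higher at ZT14 (1.13 ± 0.22, adjusted p = 0.000571), ZT18 (0.81 ± 0.16, adjusted p = 0.000398) and ZT22 (0.83 ± 0.15, adjusted p = 0.00014). These signs are opposite to those of C4H and 4CL1 at ZT6, ZT10, ZT18 and ZT22, which is a description of the same libraries. At ZT14 neither of those was called. Among the lyase genes, PAL2 had the sign of KFB20 at ZT6 (-0.37) and the opposite sign at ZT10 (0.44) and ZT22 (-0.91). PAL1 was opposite at ZT14, ZT18 and ZT22 and not called at ZT6 and ZT10. PAL4 was called, and opposite, at ZT22 alone (-0.43), and PAL3 was called at no single time. Of the other Kelch genes, KFB50 was lower at ZT6 (-0.89 ± 0.09, adjusted p = 2.56e-09), ZT2 and ZT10 and higher at ZT18 and ZT22. KFB01 was lower at ZT10 and higher at ZT18 (0.74 ± 0.16, adjusted p = 0.000885) and ZT22. KFB39 was higher at ZT18 and at ZT22 (0.77 ± 0.09, adjusted p = 9.04e-09) and was not called at the other times. MYB4 was lower in continuous light (-0.33 ± 0.07, adjusted p = 0.00813) and at ZT18 (-0.54 ± 0.09, adjusted p = 5.52e-06), was also lower at ZT14 and ZT22, and was higher at ZT6 (0.29 ± 0.09, adjusted p = 0.0214). Its sign was thus that of C4H in continuous light and at ZT6, ZT18 and ZT22. Of the 20 regulators 18 passed the filter on low counts in continuous light, where none was higher and 2 were lower, and 17 in long days, where 4 were higher and 5 lower at ZT22, against 16.6% higher and 14.1% lower of all genes. KFB39 and KFB50 overlap loci on the opposite strand over most of their length, and their counts are uncertain. Of the remaining list of 3, ATR1 and ATR2, the reductases that pass electrons to C4H, and 4CL5, none was called in continuous light, and ATR1 (0.27 ± 0.06, adjusted p = 0.000213) and ATR2 (0.23 ± 0.07, adjusted p = 0.0141) were higher at ZT22, where C4H was lower. Both were also higher at ZT18, and at ZT10 ATR2 was higher and ATR1 lower.

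**Figure D5:**
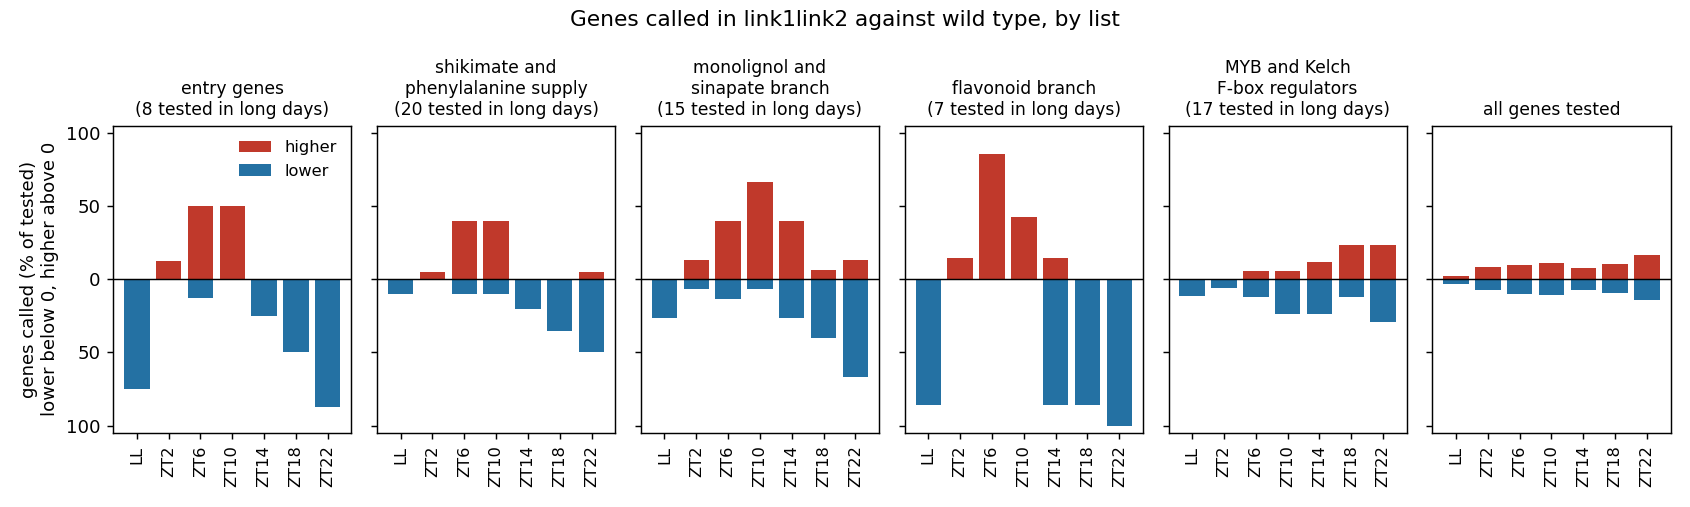
Percent of tested genes called higher (upward bars) and lower (downward bars) in link1link2 in continuous light (LL) and at the 6 long-day times, for the 8 entry genes, 4 lists of the pathway and all genes tested. The bars of the entry genes, the supply genes and both branches are mostly upward at ZT6 and ZT10 and mostly downward at ZT22, and those of all genes stay nearly even.

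Seedlings mix tissues, and fewer cells of a type and less RNA per cell cannot be told apart in these bulk libraries. Of markers fixed for this purpose, 0 of 3 for photosynthetic shoot tissue, 0 of 4 for root and 0 of 6 for xylem with secondary walls were called in continuous light. There the xylem sum was 144 to 179 CPM in link1link2 and 168 to 176 CPM in wild type. At ZT10 3 of 3 shoot markers were higher in link1link2 (sum of 17370 to 17850 CPM against 13122 to 13850 CPM). At ZT22 3 of 3 were lower (10191 to 12755 CPM against 13444 to 14646 CPM), as were 1 of 4 root markers and 1 of 6 xylem markers, with a xylem sum of 80.3 to 123 CPM against 116 to 119 CPM. At ZT18 2 of the 3 shoot markers were lower and 1 was higher, and 1 of 4 root markers was lower, with a root sum of 45.9 to 69.4 CPM in link1link2 and 71.5 to 85.1 CPM in wild type. At ZT2 2 of 3 shoot and 2 of 6 xylem markers were lower. At ZT6 2 of the 3 shoot markers were higher and 1 was lower. No marker was at 0 in any library, the smallest count being 8 for the root hair gene EXPA7. The markers themselves changed with the hour, with time of day called for 3 of 3 shoot and 6 of 6 xylem markers in both genotypes. Of the 4 root markers it was called for 3 in link1link2 and 2 in wild type. Of all genes it was called for 83.8% in link1link2 and 79.9% in wild type. The difference between genotypes changed with time for 3 of 3 shoot, 2 of 6 xylem and 0 of 4 root markers, against 41.9% of all genes. LHCB2.1, a shoot marker, ran from 315 to 71229 counts. At a given time, a shift in tissue share and a shift in the daily course of the markers cannot be told apart here. The part of these markers in the results at ZT10, ZT18 and ZT22 was not tested.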

How the data were processed

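Poly(A) RNA of seedlings was sequenced in 42 libraries, 6 in continuous light and 36 in long days. The authors deposited raw read counts per locus in 2 tables of 33602 loci, with genome build TAIR 10 per the submitters' processing notes; the aligner, the counter and its use of strand are not given in the sources used here. Columns carry letters that match no replicate number of the labels, so they were placed by group, the mutant columns by elimination, and 0 columns were left unmatched.

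Counts were filtered with filterByExpr, scaled with TMM and tested with edgeR 4.0.16 (R 4.3.3, robust quasi-likelihood, Benjamini-Hochberg adjustment over all genes tested, called at an adjusted p under 0.05). Continuous light was fitted alone (6 libraries, 4 residual degrees of freedom) and long days in 1 model of 12 groups (24 residual degrees of freedom). The tables were normalized separately, and levels were compared within each. SE is the fold change divided by the root of F. The code of the fits was also run on simulated counts, and no result given here rests on that run. Tables and plots were made with Python 3.11.15. Sequences and exon lengths came from the RefSeq copy of TAIR10.1.

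Alternatives were DESeq2 1.42.0, its size factors, library totals alone, no filter, a threshold of 0.01, each time alone, chloroplast share as a covariate, libraries of over 2% chloroplast counts left out, a replicate block, coding length, and each library left out. Every member is named. Of each list, at most the 2 called genes with the largest change in each direction per comparison are named, with exceptions. The Kelch genes and MYB4 were followed over the times whatever their rank, and DFR was chosen after its values were seen. The members and lists were chosen with earlier results of these data known.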

Additional observations from a re-analysis of the deposited data

Results flagged for a closer look

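For 7 of the 8 genes the difference between link1link2 and wild type was not the same at the 6 long-day times, by the test of genotype by time in edgeR. The adjusted p was 9.27e-12 for 4CL1, 4.08e-10 for 4CL3, 4.98e-10 for C4H and 1.05e-08 for PAL2. It was 8.57e-08 for 4CL2, 5.95e-07 for PAL1 and 0.00130 for PAL4. For PAL4 it was 0.130 without the 4 libraries of over 2% chloroplast counts.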

How the results depend on the processing

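Of the counts of members called, those at ZT2, ZT14 and for the rhythm difference moved by over 1.5 times with a setting. At ZT2, with 1 member called, there were 0 at an adjusted p under 0.01, 2 with DESeq2, 2 with DESeq2 size factors in edgeR and 0 without the libraries of over 2% chloroplast counts. With library totals alone there were 4 at ZT14 (against 2; PAL2 and 4CL1 were added) and 1 for the rhythm difference (against 0). Leaving out 1 library gave 3 to 5 called members in continuous light (against 6), 0 to 2 at ZT2, 4 to 5 at ZT6, 3 to 4 at ZT10, 2 to 3 at ZT14, 3 to 4 at ZT18 and 7 at ZT22. The pathway lists together gave 10 to 16 calls in continuous light (against 14) and 28 to 32 in the long-day mean (against 30).

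Some fold changes near 0, none of them called, changed sign with 1 library left out. At ZT2 they then ranged from -0.014 to 0.0651 for 4CL1, from -0.302 to 0.0118 for 4CL3, from -0.0353 to 0.0671 for C4H and from -0.0032 to 0.0907 for PAL4. The range was -0.161 to 0.0298 for C4H at ZT14, -0.0568 to 0.0436 for PAL4 at ZT18, -0.0083 to 0.152 for PAL3 at ZT22 and -0.0358 to 0.0054 for the 4CL2 mean. PAL4 at ZT18 was also -0.00073 with each time alone and -0.0505 with library totals, PAL1 at ZT2 was 0.0147 with library totals, and PAL3 at ZT22 was -0.0295 without the libraries of over 2% chloroplast counts. The cause was not tested.

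The column letters were tried as a replicate block. In continuous light it gave 7 called members, with PAL4 at an adjusted p of 0.0170, 18 pathway genes and 1888 genes in all, against 6, 14 and 1039. Deviations of libraries with the same letter correlated at 0.098, 0.092 and 0.213 there, and 6 of 6 libraries were most like their own letter. At the long-day times 1 to 4 of 6 were. Whether the letters pair samples in continuous light is not given in the sources used here. The main calls are those of the fit without the block. Without wild-type library B, 657 genes were called in continuous light. Depth limits 4CL3 most, with 26 counts in its smallest library.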
